A study of Mus musculus with 468 samples.

Results

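The comparison described here asks in which genes of brown adipose tissue (BAT) the response to a long-acting FGF21 differed between db/db-chow and WT-chow mice. It used 40 of the 468 custom Affymetrix mouse arrays of the series, 8 groups of 5 mice each. Treated mice received PEG30-FGF21 Q108, a pegylated FGF21, at 2.5 mg/kg by subcutaneous injection, 2 doses a week, and their BAT was collected some 30 h later, at day 5 (second dose) or at day 2 (first dose). The groups they were set against received 2 injections of saline vehicle a day, with BAT collected some 6 h after an injection. Within each model, the response of a gene is its mean log2 intensity in PEG30-FGF21 Q108 mice minus that in vehicle mice. The difference of responses is the db/db response minus the WT response on the same day, so that a positive value means a response that was more positive, or less negative, in db/db BAT.

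All mice were male and 8 weeks old. The db/db mice, which carry the db mutation of the leptin receptor and are obese and diabetic, were C57BLKS/J mice from one supplier, fed one chow. The WT mice were C57BL/6 mice from another supplier, fed another chow. Genotype, strain, supplier and chow brand therefore cannot be told apart in any value given here. In both models the PEG30-FGF21 Q108 tissue was taken later after the last injection than the vehicle tissue per the labels, although the methods also state 1 time, 6 h, at which mice were killed, so that drug and hours since injection cannot be told apart in a response. Vehicle was also injected more often, 2 times a day against 2 doses a week. The number of injections and the drug therefore cannot be told apart either. Array levels also stood apart between the 2 models, with array medians of 18.08 to 19.29 intensity units in db/db BAT and 11.15 to 11.83 in WT BAT, so that levels are not compared between models, whereas a response is taken within a model. The median correlation of an array with the others of its model was 0.9858 to 0.9923 in db/db BAT and 0.9874 to 0.9921 in WT BAT. Such a correlation mostly follows the levels of the genes, so that it cannot show an array that differs at a set of genes.

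FGF21 is an endocrine growth factor. Its receptor on adipocytes pairs an FGF receptor, mainly FGFR1, with βKlotho, the product of Klb, and activates ERK, which induces feedback inhibitors such as the Sprouty and dual-specificity phosphatase genes. BAT burns fatty acids and glucose for heat through the uncoupling protein Ucp1, and it also makes fatty acids from glucose, a process that insulin drives and that is known to be blunted in insulin-resistant fat.

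The tissue label was checked first. Ucp1, which defines brown adipocytes, lay between 13.02 and 13.27 on the log2 scale on all 40 arrays, close to the highest value of any probe set there (13.66). The Lepr probe set averaged 2.62, near the low end of the scale, and says nothing of the db mutation. Bulk tissue cannot tell fewer cells of a type from less RNA per cell. Of 15 skeletal muscle markers none was called for a difference of responses on either day (limma; none had an unadjusted p under 0.05 either), although all 15 differences were negative at day 5 (median -0.91) and 14 were positive at day 2 (median 0.20), and their summed intensity was uneven within every group, from 2177.5 to 33180 in PEG30-FGF21 Q108 and from 29515.2 to 59597.9 in vehicle db/db BAT at day 5, and from 641 to 33393.9 and from 875 to 40608.6 in WT BAT at day 5. With the muscle marker level as a covariate, 3007 of the 3086 probe sets called at day 5 and 438 of the 446 called at day 2 were called again.

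At day 5 the db/db and WT responses differed for 3086 of 43681 probe sets (7.06%), 1497 of them with the db/db response above the WT response (3.43%) and 1589 with it below (3.64%). With quantile scaling 1737 lay above and 1502 below, so that which direction held more depended on the scaling. At day 2 they differed for 446 (1.02%), 274 above (0.627%) and 172 below (0.394%). A probe set counted as called when the adjusted p of limma's moderated test was under 0.05 and the fold at least 1.2. Where a call is said below to be lost without a mouse, that mouse is the one whose removal left the highest adjusted p. Removing other single arrays could end the call as well. Without the db/db PEG30-FGF21 Q108 mouse of replicate 1 the day 2 count was 285, the lowest of the 20 counts that leave out 1 array, which reached 467, whereas the day 5 count stayed between 2670 and 3084. The responses themselves were called for 7206 probe sets in db/db BAT (16.5%; 7.79% higher and 8.7% lower) and 5552 in WT BAT (12.7%; 6.08% higher and 6.63% lower) at day 5, and for 3562 in db/db BAT (8.15%; 4.59% higher and 3.56% lower) and 1549 in WT BAT (3.55%; 1.82% higher and 1.73% lower) at day 2. The difference itself changed between the days for 355 probe sets (0.813%). Over all probe sets the db/db and WT responses correlated with r = 0.415 at day 5 and r = 0.394 at day 2, a description across probe sets, which are not independent.

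The 1497 probe sets with the higher db/db response at day 5 were of several kinds. In 710 the response was called in db/db BAT alone, as a rise, and in 412 it was called in WT BAT alone, as a fall. It was called in both models in the same direction in 73, in opposite directions in 94 and in neither in 208. Of the 1589 with the lower db/db response, 673 were called in db/db BAT alone, as a fall, 600 in WT BAT alone, as a rise, 74 in both in the same direction, 87 in opposite directions and 155 in neither. At day 2, 189 of the 274 were rises called in db/db BAT alone and 114 of the 172 were falls called there alone. Of the 446 probe sets called at day 2, 389 had the same sign at day 5 (87.2%, against 52.7% of all probe sets), 191 were called again in the same direction and 1 in the opposite one.

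**Figure D1:**
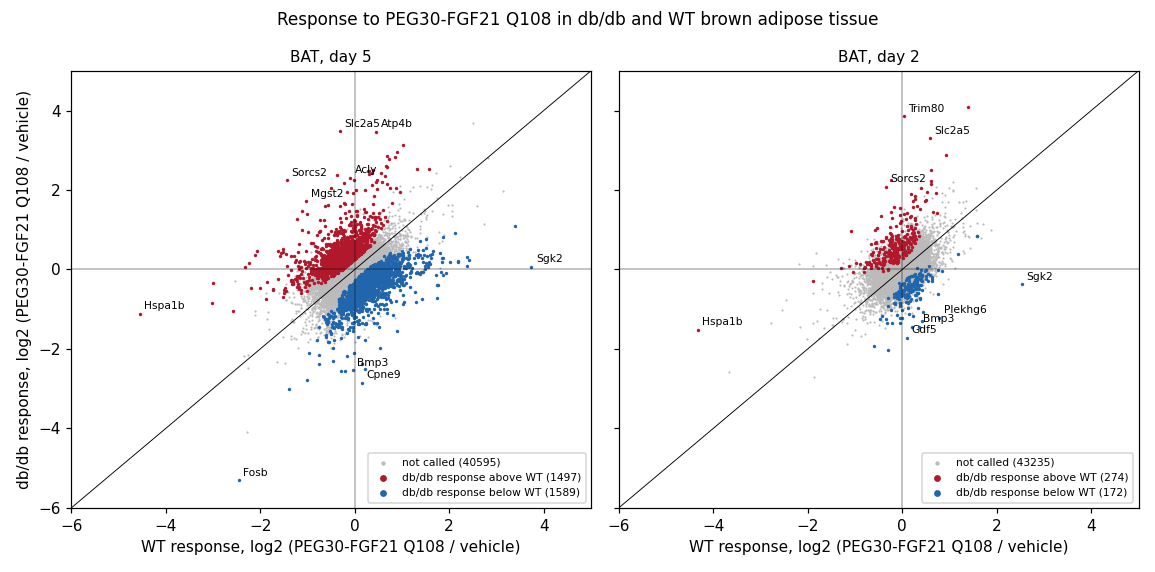
Response to PEG30-FGF21 Q108 (log2, PEG30-FGF21 Q108 minus vehicle) in db/db BAT (y axis) against WT BAT (x axis), day 5 left and day 2 right, one point per probe set, with the diagonal of equal responses. Red points (1497 at day 5, 274 at day 2) lie above the diagonal and blue points (1589 and 172) below it. Sgk2 and Hspa1b are far along the WT axis, Slc2a5 and Fosb along the db/db axis.

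Counted with 1 probe set a gene, the one with the highest mean level, 2077 of 22164 genes (9.37%) were called at day 5, 4.67% with the higher and 4.7% with the lower db/db response, and 314 (1.42%) at day 2, 0.826% and 0.591%. On this basis the db/db response was called for 19.6% of genes (8.96% higher and 10.6% lower) and the WT response for 15.6% (7.21% and 8.41%) at day 5. The gene lists below are counted on this basis, and the median difference over all genes was 0.02 at day 5 and -0.01 at day 2. The lists and their members were chosen with earlier results of these data known. Their counts and order are therefore a description and not an unbiased ranking of pathways. In the plot of 28 gene lists, de novo lipogenesis had the most members with the higher db/db response at day 5 and the immediate early genes the most with the lower one. At day 2 the heat shock chaperones had 4 with the higher one, de novo lipogenesis 3 and the thermogenic and brown fat genes 3. Leaving out any 1 array, these counts were 2 to 4, 1 to 3 and 2 to 3, so that their order was not settled. No immediate early gene was called at day 2.

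**Figure D2:**
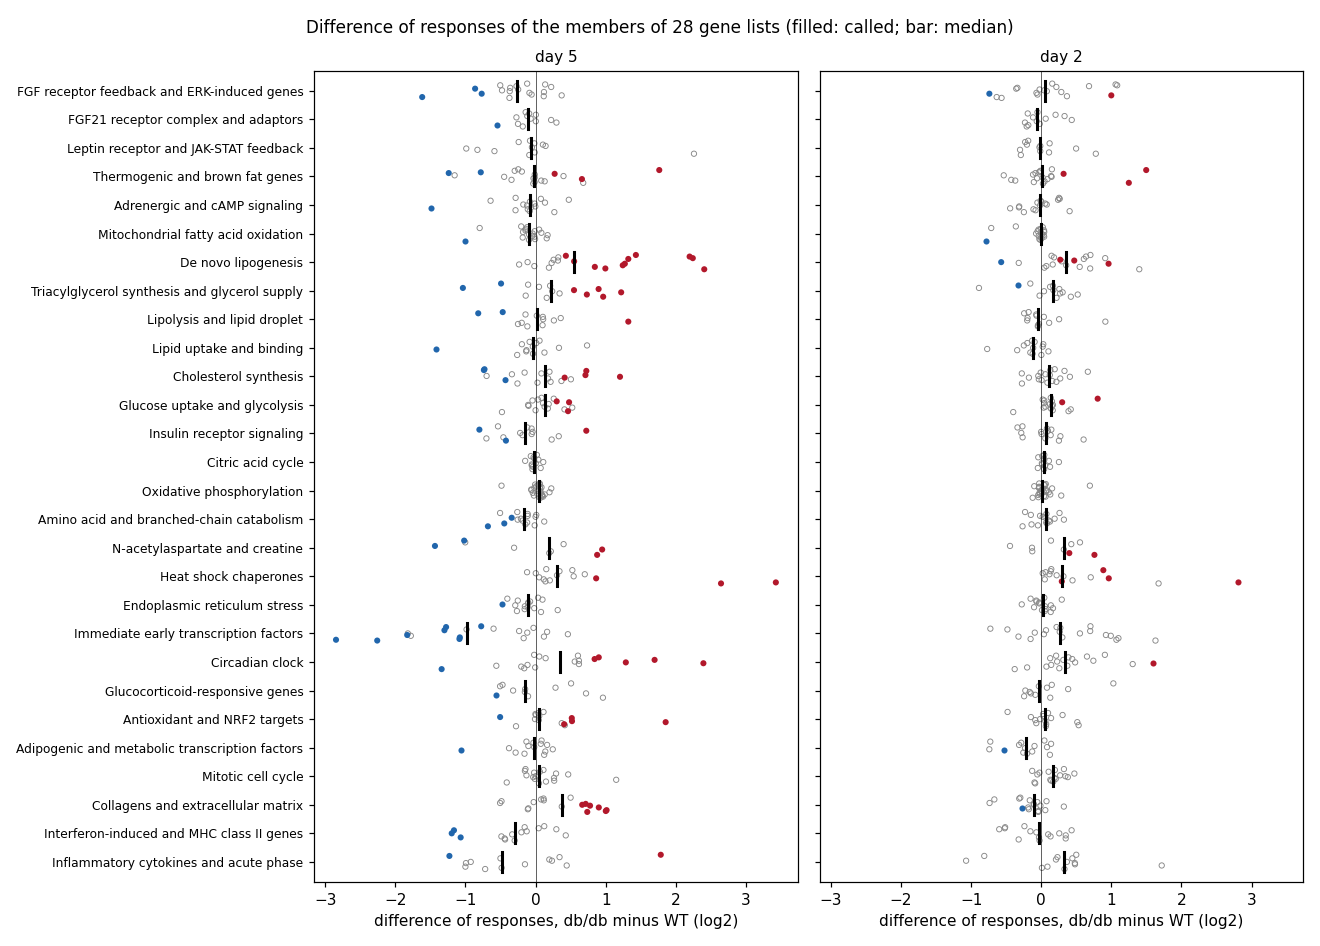
Difference of responses (log2, db/db minus WT) of each measured member of 28 gene lists, day 5 left and day 2 right. Filled points passed the test (red higher, blue lower in db/db), open points did not, and the bar is the list's median, for example 0.55 for de novo lipogenesis and -0.98 for the immediate early genes at day 5.

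Genes that turn glucose carbon into fatty acids were among those with the higher db/db response. Of 19 de novo lipogenesis genes, 11 had the higher db/db response at day 5 and none the lower one (median 0.55), and at day 2 3 had the higher and 1 the lower one (median 0.36). Leaving out any 1 array, 10 to 12 of the 19 were called as higher at day 5. In db/db BAT the response itself was called as a rise for 13 of the 19 at day 5 and as a fall for 1 (median 0.82), and in WT BAT as a rise for 2 and a fall for 3 (median 0.01). Of all genes, 8.96% were called as a rise and 10.6% as a fall in db/db BAT, and 7.21% and 8.41% in WT BAT. Those called for the difference covered mitochondrial citrate export (Slc25a1), citrate cleavage by ATP citrate lyase (Acly) and acetate activation (Acss2), carboxylation (Acaca), chain synthesis (Fasn), elongation (Elovl6), desaturation (Scd2), the NADPH suppliers Me1, Pgd and G6pdx, and the regulator Srebf1. Acly, Fasn, Acaca, Scd2, Me1, G6pdx, Srebf1, Mlxipl, Thrsp, Fads2 and Scd1 are named here after their values were seen.

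Acly measured 11, 11.02, 11.08, 10.80 and 11.49 in PEG30-FGF21 Q108 db/db BAT at day 5, against 8.04, 8.33, 9.92, 9.24 and 8.34 in vehicle db/db BAT. In WT BAT Acly measured 11.20, 11.06, 10.95, 11.05 and 10.95 with PEG30-FGF21 Q108 and 11.13, 11.32, 11.50, 10.72 and 11.03 with vehicle. The db/db groups did not overlap, the WT groups did, and vehicle replicates 3 and 4 were the highest of their db/db group. The db/db response of 2.31 and the WT response of -0.10 differed by 2.41 ± 0.45 (SE, n = 5 mice in each group here and below; limma, adjusted p = 6.7e-05). At day 2 the difference was 1.40 ± 0.45 and did not pass (adjusted p = 0.12).

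Acss2, acetyl-CoA synthetase, moved in opposite directions in the 2 models at day 5. It measured 11.47, 11.61, 11.53, 11.35 and 11.71 in PEG30-FGF21 Q108 db/db BAT, against 9.45, 9.65, 10.66, 10.14 and 9.65 in vehicle db/db BAT. In WT BAT Acss2 measured 10.81, 10.79, 10.63, 10.91 and 10.86 with PEG30-FGF21 Q108, and 11.23, 11.51, 11.84, 11 and 11.28 with vehicle. The groups overlapped in neither model, treated mice being higher in db/db (response 1.63) and lower in WT (response -0.57), and the difference was 2.20 ± 0.23 (adjusted p = 3e-11). At day 2 the difference was 0.64 ± 0.23 (adjusted p = 0.21), and its change between the days, 1.56, passed the test as well (adjusted p = 0.0062).

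Slc25a1, the mitochondrial citrate carrier, had the same pattern. It measured 10.79, 11.10, 11.06, 10.93 and 11.40 in PEG30-FGF21 Q108 db/db BAT at day 5, against 8.93, 9.42, 10.21, 9.56 and 9.12 in vehicle db/db BAT. In WT BAT Slc25a1 measured 10.64, 10.43, 10.13, 10.45 and 10.38 with PEG30-FGF21 Q108, and 11.19, 11.12, 11.01, 10.84 and 11.03 with vehicle. Again neither pair of groups overlapped, with responses of 1.61 in db/db and -0.63 in WT BAT and a difference of 2.24 ± 0.29 (adjusted p = 6.6e-09).

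Elovl6, which lengthens palmitate, was called on both days. At day 5 it measured 12.37, 12.44, 12.57, 12.31 and 12.46 in PEG30-FGF21 Q108 db/db BAT and 10.24, 10.35, 11.67, 11.32 and 10.30 in vehicle db/db BAT. The WT values were 12.67, 12.64, 12.61, 12.62 and 12.53 with PEG30-FGF21 Q108 and 12.13, 12.28, 12.41, 12.16 and 12.18 with vehicle. Treated mice were higher without overlap in both models, by 1.65 in db/db and 0.38 in WT BAT, a difference of 1.27 ± 0.17 (adjusted p = 4e-08), and at day 2 the difference was 0.96 ± 0.17 (adjusted p = 0.00034).

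The other members had smaller differences at day 5, of 1.43 for Pgd, 1.32 for Me1, 1.24 for Scd2, 0.99 for Acaca, 0.84 for Fasn, 0.55 for Srebf1 and 0.43 for G6pdx. Fasn measured 13.07 to 13.16 in PEG30-FGF21 Q108 and 11.60 to 12.83 in vehicle db/db BAT, and 13.11 to 13.17 in PEG30-FGF21 Q108 and 13.07 to 13.21 in vehicle WT BAT. Only 0.0893% of probe sets had a higher mean level, and a second Fasn probe set, lower on the scale, gave a difference of 2.18 ± 0.47 (adjusted p = 0.00058). Srebf1, which encodes the insulin-driven transcription factor of this pathway, was no longer called without the db/db PEG30-FGF21 Q108 mouse of replicate 5 (0.43, adjusted p = 0.063). At day 2 the members called besides Elovl6 were the glucose-sensing factor Mlxipl (0.47), Thrsp (0.27) and, as the lower one, the desaturase Fads2 (-0.57), of which Mlxipl lost its call without the db/db PEG30-FGF21 Q108 mouse of replicate 1 (0.42, adjusted p = 0.087) and Thrsp without the WT PEG30-FGF21 Q108 mouse of replicate 5, where it fell under the fold limit (0.25). Scd1, the main fat desaturase, had differences of -0.02 at day 5 and 0.07 at day 2, neither called.

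**Figure D3:**
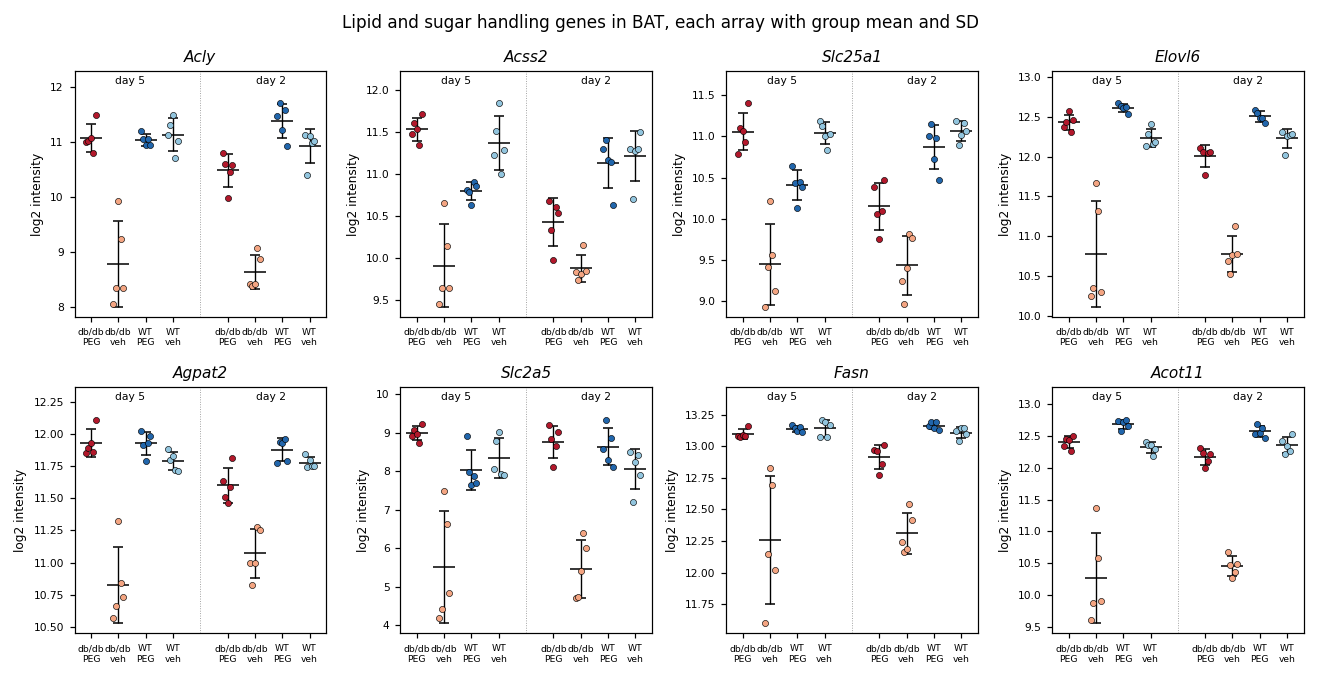
Log2 intensity of 8 lipid and sugar handling genes on each array (points), with the group mean and SD (n = 5), in db/db and WT BAT, PEG30-FGF21 Q108 left of vehicle, day 5 left of day 2. For Acly, Acss2, Slc25a1, Elovl6, Agpat2, Slc2a5, Fasn and Acot11 at day 5 the treated db/db mice lie above all vehicle db/db mice, among which replicates 3 and 4 are the highest.

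The promoters of the citrate and acetate genes and of Fasn, from RefSeq (GRCm38.p6, 300 bases across the gene's start, 5′ to 3′ on the gene's strand), are shown because these genes moved together in db/db BAT. Capitals mark CCAAT, read on either strand (ATTGG on the other), the letters of the box bound by NF-Y.
Acly: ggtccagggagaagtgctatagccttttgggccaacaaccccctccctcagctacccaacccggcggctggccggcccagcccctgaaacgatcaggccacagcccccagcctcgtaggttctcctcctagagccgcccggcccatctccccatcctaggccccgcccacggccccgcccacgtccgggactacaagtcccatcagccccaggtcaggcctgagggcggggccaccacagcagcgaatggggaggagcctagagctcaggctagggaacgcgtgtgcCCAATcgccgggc
Acss2: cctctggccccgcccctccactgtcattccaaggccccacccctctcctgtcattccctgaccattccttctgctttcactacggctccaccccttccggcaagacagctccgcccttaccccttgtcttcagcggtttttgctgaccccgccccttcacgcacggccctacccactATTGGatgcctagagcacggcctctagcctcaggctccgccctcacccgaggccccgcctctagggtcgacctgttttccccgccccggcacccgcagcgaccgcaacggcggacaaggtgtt
Slc25a1: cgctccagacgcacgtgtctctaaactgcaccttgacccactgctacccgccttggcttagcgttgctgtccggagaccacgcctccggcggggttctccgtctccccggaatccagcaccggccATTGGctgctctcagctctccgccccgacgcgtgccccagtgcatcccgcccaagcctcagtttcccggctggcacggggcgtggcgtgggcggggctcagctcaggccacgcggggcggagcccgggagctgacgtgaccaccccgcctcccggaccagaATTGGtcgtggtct
Fasn: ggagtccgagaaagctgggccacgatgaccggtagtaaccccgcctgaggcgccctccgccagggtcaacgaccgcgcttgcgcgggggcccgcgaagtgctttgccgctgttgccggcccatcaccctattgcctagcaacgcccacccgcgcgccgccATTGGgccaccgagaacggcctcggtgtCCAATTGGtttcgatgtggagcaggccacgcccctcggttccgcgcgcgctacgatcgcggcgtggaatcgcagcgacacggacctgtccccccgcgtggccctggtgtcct
They are chr11:100527951-100528250, chr2:155517793-155518092, chr16:17928170-17928469 and chr11:120824498-120824797, Acss2 on the plus and the others on the minus strand. They hold 1, 1, 2 and 3 matches, 2 of the Fasn matches overlapping. The letters occur in 37.4% of the 32851 promoter windows of this length. Counted by gene, they occur in at least 1 window of 41.1% of 27025 genes and of 12 of the 16 lipogenesis genes that have a window (75%), which describes the letters and not a bound factor.

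Slc2a5, the fructose transporter, had the most positive difference of all named genes at day 5. It measured 8.92, 9.08, 8.96, 8.73 and 9.22 in PEG30-FGF21 Q108 db/db BAT, against 4.19, 4.43, 7.48, 6.62 and 4.83 in vehicle db/db BAT. In WT BAT Slc2a5 measured 8.92, 7.99, 7.64, 7.87 and 7.69 with PEG30-FGF21 Q108, and 8.07, 8.78, 9.02, 7.92 and 7.90 with vehicle. The db/db groups did not overlap although the vehicle mice spread widely, and the WT groups did overlap. The responses of 3.47 in db/db and -0.32 in WT BAT differed by 3.79 ± 0.67 (adjusted p = 2.1e-05), and at day 2 the difference was 2.72 ± 0.67 (adjusted p = 0.019).

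Of 17 glucose uptake and glycolysis genes, 3 had the higher db/db response at day 5, none the lower one (median 0.13), and 2 had the higher one at day 2 (median 0.14). The insulin-regulated transporter Slc2a4 (0.46 ± 0.15) and the glycolytic genes Eno1 (0.48 ± 0.083) and Pkm (0.30 ± 0.067) made up the 3 at day 5. Slc2a4 lost its call without the db/db PEG30-FGF21 Q108 mouse of replicate 5 (0.37, adjusted p = 0.13), and Pkm fell under the fold limit without the db/db vehicle mouse of replicate 1 (0.26). Pdk1, which restrains pyruvate oxidation, was called at day 2 (0.80 ± 0.16, adjusted p = 0.0023), whereas a second Pdk1 probe set gave 0.37 (limma, adjusted p = 0.5). Eno1 was called at day 2 as well (0.30), though not without the db/db PEG30-FGF21 Q108 mouse of replicate 1 (0.28, adjusted p = 0.1). Among 14 insulin receptor signaling genes, Tbc1d4, the Akt substrate that controls Slc2a4 traffic, and Insr, the insulin receptor, had the lower db/db response at day 5 (-0.80 and -0.42, a second Insr probe set of similar level giving -0.09, adjusted p = 0.79), and Foxo1 the higher one (0.72), which was lost without the WT vehicle mouse of replicate 4 (0.56, adjusted p = 0.094).

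Tbc1d4 measured 9.0, 9.13, 9.16, 8.99 and 8.99 in PEG30-FGF21 Q108 db/db BAT at day 5, against 9.70, 9.77, 9.53, 9.71 and 9.59 in vehicle db/db BAT. In WT BAT Tbc1d4 measured 9.72, 9.56, 9.82, 9.67 and 9.73 with PEG30-FGF21 Q108, and 9.48, 9.63, 9.55, 9.40 and 9.48 with vehicle. The treated db/db mice were all lower than their vehicle mice, and the WT groups overlapped. The difference was -0.80 ± 0.13 (adjusted p = 5.9e-06) at day 5 and 0.14 ± 0.13 (adjusted p = 0.8) at day 2, a change of -0.95 (adjusted p = 0.0032).

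Of 14 triacylglycerol synthesis and glycerol supply genes, 5 had the higher and 2 the lower db/db response at day 5 (median 0.22), and at day 2 1 had the lower one, Pck1 (-0.33), which was lost without the db/db PEG30-FGF21 Q108 mouse of replicate 1 (-0.28, adjusted p = 0.067). The 5 were Agpat2, the acyltransferase that makes phosphatidic acid, Lpin3 (1.22) and Lpin1 (0.73), which dephosphorylate it, Mogat1 (0.90) and Dgat2 (0.55), which add the last acyl chains. The lower ones were Gpat3 (-1.04), an acyltransferase of the first step, and the glycerol channel Aqp7 (-0.49), and both lost their call without the WT vehicle mouse of replicate 3 (-0.86, adjusted p = 0.072, and -0.41, adjusted p = 0.088). Lpin1, Gpat3, Aqp7 and Pck1 are named after their values were seen.

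Agpat2 measured 11.85, 11.89, 11.93, 11.86 and 12.11 in PEG30-FGF21 Q108 db/db BAT at day 5, against 10.57, 10.66, 11.32, 10.84 and 10.73 in vehicle db/db BAT. In WT BAT Agpat2 measured 12.02, 11.91, 11.79, 11.93 and 11.98 with PEG30-FGF21 Q108, and 11.88, 11.80, 11.83, 11.72 and 11.71 with vehicle. No db/db values overlapped, whereas WT values did, with a difference of 0.96 ± 0.13 (adjusted p = 2.9e-08). Of 13 lipolysis and lipid droplet genes, G0s2, an inhibitor of the lipase ATGL, had the higher db/db response (1.32 ± 0.32, adjusted p = 0.0025), with a db/db response of -0.02 and a WT response of -1.34. The lipase Ces1d (-0.47) and the ATGL inhibitor Hilpda (-0.82) had the lower one, Hilpda not without the db/db vehicle mouse of replicate 1 (-0.72, adjusted p = 0.054).

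Cholesterol synthesis did not move one way. Of 18 genes, 4 had the higher db/db response at day 5, Lss (1.2 ± 0.19, adjusted p = 1.9e-06), Nsdhl (0.72), Dhcr7 (0.71) and Mvk (0.41), and 3 the lower one, Hsd17b7 (-0.74), Msmo1 (-0.73) and Fdft1 (-0.43, a second probe set of similar level giving 0.79, adjusted p = 0.1). None was called at day 2 (limma; without adjustment, p was under 0.05 for 2 higher and 1 lower). Nsdhl, Mvk, Hsd17b7, Msmo1 and Fdft1 each lost the call without 1 array: Nsdhl without the db/db vehicle mouse of replicate 1 (0.63, adjusted p = 0.13), Mvk without the db/db PEG30-FGF21 Q108 mouse of replicate 5 (0.33, adjusted p = 0.13), Hsd17b7 and Msmo1 without the WT vehicle mouse of replicate 5 (-0.63, adjusted p = 0.092, and -0.56, adjusted p = 0.13), and Fdft1 without the db/db vehicle mouse of replicate 3 (-0.38, adjusted p = 0.061). Nsdhl, Msmo1 and Mvk are named after their values were seen.

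Few genes of fatty acid burning were called. None of 27 oxidative phosphorylation genes (median 0.05 at day 5 and 0.01 at day 2) and none of 13 citric acid cycle genes (-0.03 and 0.04) was called on either day, although without adjustment p was under 0.05 for 3 of the first and 1 of the second at day 5 and for 2 and 1 at day 2, all higher. Of 19 mitochondrial fatty acid oxidation genes, Cpt1a, which lets long-chain fatty acids into mitochondria, was the only one called, although without adjustment p was under 0.05 for 3 higher and 7 lower at day 5, where it was for 8227 of the 43681 probe sets, and for 1 lower at day 2. The Cpt1a responses were 0.15 in db/db and 1.15 in WT BAT at day 5, a difference of -1.0 ± 0.22 (adjusted p = 0.0006), and at day 2 the difference was -0.79 ± 0.22 (adjusted p = 0.044), which was lost without the WT PEG30-FGF21 Q108 mouse of replicate 5 (-0.66, adjusted p = 0.15).

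Ucp1 measured 13.20, 13.18, 13.17, 13.20 and 13.21 in PEG30-FGF21 Q108 db/db BAT at day 5, against 13.02, 13.06, 13.11, 13.07 and 13.05 in vehicle db/db BAT. In WT BAT Ucp1 measured 13.17, 13.21, 13.25, 13.26 and 13.22 with PEG30-FGF21 Q108, and 13.08, 13.07, 13.02, 13.04 and 13.08 with vehicle. Treated mice were higher without overlap in both models, by 0.13 in db/db and 0.16 in WT BAT, under the fold limit, and the difference was -0.03 ± 0.033 (adjusted p = 0.66). Only 0.0206% of probe sets had a higher mean level, and what the top of the scale does to its response was not tested. Elovl3, a fatty acid elongase typical of stimulated BAT and named after its values were seen, rose by 2.81 in db/db and 2.82 in WT BAT at day 5, a difference of -0.01 ± 0.37.

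Of 20 thermogenic and brown fat genes, 3 had the higher and 2 the lower db/db response at day 5 (median -0.02), and 3 the higher one at day 2 (median 0.00). Acot11, an acyl-CoA thioesterase that cold induces in BAT, measured 12.34, 12.45, 12.44, 12.26 and 12.49 in PEG30-FGF21 Q108 db/db BAT at day 5, against 9.61, 9.88, 11.37, 10.58 and 9.91 in vehicle db/db BAT. In WT BAT Acot11 measured 12.73, 12.57, 12.72, 12.74 and 12.65 with PEG30-FGF21 Q108, and 12.41, 12.36, 12.36, 12.19 and 12.29 with vehicle. Treated mice were above vehicle mice without overlap in both models, by 2.12 in db/db and by 0.36 in WT BAT, and the difference was 1.76 ± 0.19 (adjusted p = 4e-11), with 1.5 ± 0.19 at day 2 (adjusted p = 6.2e-08). A second Acot11 probe set gave 2.18 at day 5 and 1.66 at day 2.

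Zic1, a transcription factor that marks brown fat of the back, differed the other way. It measured 7.11, 7.01, 6.95, 6.66 and 6.81 in PEG30-FGF21 Q108 db/db BAT at day 5, against 7.34, 7.29, 7.10, 6.93 and 7.09 in vehicle db/db BAT. In WT BAT Zic1 measured 7.41, 7.26, 7.50, 7.15 and 7.48 with PEG30-FGF21 Q108, and 6.56, 6.27, 6.44, 6.42 and 6.12 with vehicle. The db/db groups overlapped, the WT groups did not, and the difference was -1.24 ± 0.17 (adjusted p = 8.3e-08), against -0.08 ± 0.17 at day 2 (adjusted p = 0.93). Lhx8, another brown fat marker, had a difference of -0.78 at day 5. Dio2, which activates thyroid hormone, was called at day 2 (1.25 ± 0.31 on its brighter and 2.04 ± 0.44 on a dimmer probe set), though the brighter one not without the WT PEG30-FGF21 Q108 mouse of replicate 3 (1.16, adjusted p = 0.06). The proton channel Otop1 differed by 0.27 at day 5 and 0.32 at day 2, and Prdm16, a brown fat coregulator, by 0.66 at day 5. Otop1 at day 5 fell under the fold limit without the db/db vehicle mouse of replicate 2 (0.22, adjusted p = 0.064), and Prdm16 lost its call without the db/db PEG30-FGF21 Q108 mouse of replicate 5 (0.54, adjusted p = 0.12).

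Around N-acetylaspartate and creatine, Nat8l, which makes N-acetylaspartate, had the higher db/db response on both days (0.88 ± 0.16 at day 5, adjusted p = 2.7e-05, and 0.76 ± 0.16 at day 2, adjusted p = 0.0028), with WT responses of -0.05 and 0.06. A second Nat8l probe set gave 0.08 at day 5 (adjusted p = 0.87) and 0.66 at day 2 (adjusted p = 0.06). The creatine genes split, with Gamt, which makes creatine, at 0.95 ± 0.23, and the creatine kinase Ckb at -1.44 ± 0.27 and the phosphatase Alpl at -1.02 ± 0.21, all at day 5 and with db/db responses of -0.36, -0.40 and 0.06 and WT responses of -1.31, 1.03 and 1.08. Of the 16 amino acid catabolism genes, 3 had the lower db/db response at day 5, Bcat2 (-0.68), Dbt (-0.45) and Pcca (-0.34), which act on branched-chain amino acids and propionate.

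Of 15 heat shock chaperone genes, 3 had the higher db/db response at day 5 (median 0.31) and 4 at day 2 (median 0.29), and none the lower one on either day. The db/db response was called as a fall for 2 at day 5 and 3 at day 2 (10.6% and 4.89% of all genes), and the WT response for 6 and 8 (8.41% and 2.24% of all genes). Hspa1b and Hspa1a encode the inducible HSP70, which binds unfolded proteins, and are near-identical copies, so that their probe sets may each read both RNAs.

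Hspa1b measured 4.98, 5.09, 5.41, 5.33 and 5.12 in PEG30-FGF21 Q108 db/db BAT at day 5, against 5.65, 6.48, 7.0, 6.68 and 5.74 in vehicle db/db BAT. In WT BAT Hspa1b measured 3.58, 4.42, 3.94, 5.11 and 4.49 with PEG30-FGF21 Q108, and 9.98, 8.46, 8.45, 8.53 and 8.85 with vehicle. Treated mice were lower without overlap in both models, by a db/db response of -1.12 that did not pass its own test (adjusted p = 0.1) and a WT response of -4.55, and the difference was 3.43 ± 0.70 (adjusted p = 0.00026). At day 2 it measured 5.37, 5.24, 5.51, 5.83 and 6.00 in PEG30-FGF21 Q108 and 7.09, 7.70, 7.54, 5.80 and 7.38 in vehicle db/db BAT, and 3.74, 4.19, 3.99, 4.64 and 4.25 in PEG30-FGF21 Q108 and 7.99, 7.87, 8.72, 8.86 and 9.0 in vehicle WT BAT. The low vehicle db/db value, replicate 4, decided the overlap, and the day 2 difference of 2.81 ± 0.70 (adjusted p = 0.02) was 2.49 without that mouse (adjusted p = 0.07).

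Hspa1a differed by 2.64 ± 0.56 at day 5 (adjusted p = 0.00051), with responses of -0.35 in db/db and -2.99 in WT BAT, and by 1.67 ± 0.56 at day 2 (adjusted p = 0.14). The co-chaperone Dnaja1, named after its values were seen, differed by 0.86 at day 5 and 0.96 at day 2, but not without the WT PEG30-FGF21 Q108 mouse of replicate 1 at day 5 (0.72, adjusted p = 0.1) or the db/db vehicle mouse of replicate 4 at day 2 (0.86, adjusted p = 0.13). Leaving out 1 array ended the Dnaja1 call for 5 of the 20 arrays at day 5 and for 16 of 20 at day 2. Chordc1, an HSP90 partner, differed by 0.89 ± 0.20 at day 2 (adjusted p = 0.0069), and the constitutive chaperone Hspa8 by 0.29 ± 0.064 (adjusted p = 0.0049). A second Chordc1 probe set gave 0.77 at day 2 and was not called (limma, adjusted p = 0.15). Of 16 endoplasmic reticulum stress genes only Pdia4 was called, at day 5 and downwards (-0.48), and not without the db/db PEG30-FGF21 Q108 mouse of replicate 5 (-0.40, adjusted p = 0.13).

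The promoters of Hspa1b, Hspa1a and Chordc1 (RefSeq, GRCm38.p6, the same window) are shown as examples of genes with the higher db/db response. Hspa1b was called on both days, Hspa1a at day 5 alone and Chordc1 at day 2 alone. Dnaja1 and Hspa8, called in the same direction, are not shown. Capitals mark GAANNTTC, a core of the heat shock element that reads the same on both strands.
Hspa1b: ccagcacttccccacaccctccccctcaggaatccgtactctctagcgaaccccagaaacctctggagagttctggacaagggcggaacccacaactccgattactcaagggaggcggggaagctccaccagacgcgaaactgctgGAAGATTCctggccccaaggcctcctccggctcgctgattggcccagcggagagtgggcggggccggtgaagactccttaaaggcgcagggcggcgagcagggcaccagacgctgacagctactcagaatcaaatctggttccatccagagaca
Hspa1a: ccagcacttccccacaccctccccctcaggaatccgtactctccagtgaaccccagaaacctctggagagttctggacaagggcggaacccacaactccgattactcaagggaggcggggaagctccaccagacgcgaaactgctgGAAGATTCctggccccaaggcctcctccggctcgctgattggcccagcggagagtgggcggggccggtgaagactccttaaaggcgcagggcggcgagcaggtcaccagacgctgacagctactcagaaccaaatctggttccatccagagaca
Chordc1: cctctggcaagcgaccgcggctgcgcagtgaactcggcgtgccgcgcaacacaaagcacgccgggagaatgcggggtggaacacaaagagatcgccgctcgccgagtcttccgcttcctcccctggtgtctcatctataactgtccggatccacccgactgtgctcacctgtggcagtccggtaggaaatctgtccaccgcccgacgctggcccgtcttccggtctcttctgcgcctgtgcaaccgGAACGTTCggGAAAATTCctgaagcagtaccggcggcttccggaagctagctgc
They are chr17:34959189-34959488 and chr17:34972107-34972406, both on the minus strand, and chr9:18292017-18292316 on the plus strand, with 1, 1 and 2 matches. The Hspa1b and Hspa1a windows differ at 4 of 300 bases. The letters occur in 7.86% of the 32851 promoter windows and, counted by gene, in at least 1 window of 9.04% of 27025 genes and of 9 of the 12 heat shock genes that have a window (75%).

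Immediate early genes are the first to be transcribed after a stimulus. Of 19 immediate early transcription factor genes, 8 had the lower db/db response at day 5 and none the higher one (median -0.98), and none was called at day 2 (median 0.27; without adjustment, p was under 0.05 for 3 higher and 1 lower). Leaving out any 1 array, 6 to 10 were called as lower at day 5. The db/db response was called as a fall for 18 of the 19 and the WT response for 12 at day 5, and for 6 and 10 at day 2. Of all genes, 10.6% and 8.41% were called as a fall at day 5, and 4.89% and 2.24% at day 2. The change of the difference between the days was called for 5 of the 19, all downwards (1.17% of all genes were called for such a change).

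Fosb, a subunit of the AP-1 factor, measured 3.09, 3.44, 3.94, 3.76 and 2.54 in PEG30-FGF21 Q108 db/db BAT at day 5, against 8.18, 9.21, 8.78, 8.16 and 8.93 in vehicle db/db BAT. In WT BAT Fosb measured 1.32, 1.25, 1.95, 1.82 and 1.77 with PEG30-FGF21 Q108, values low on the scale, and 5.96, 4.67, 3.89, 2.25 and 3.60 with vehicle. Treated mice were lower without overlap in both models, by a response of -5.30 in db/db and of -2.45 in WT BAT, and the difference was -2.85 ± 0.71 (adjusted p = 0.004). At day 2 it was 1.07 ± 0.71 (adjusted p = 0.65), and the change between the days was -3.92 (adjusted p = 0.034). Since the treated WT values lay near the 5th percentile of their arrays on both days, the WT falls are lower limits of their size. A larger WT fall would make the day 5 difference smaller in size than -2.85 and the day 2 difference larger than 1.07. Neither the differences nor their change are exact.

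Egr2, a zinc finger factor, measured 7.46, 7.68, 7.67, 7.58 and 6.95 in PEG30-FGF21 Q108 db/db BAT at day 5, against 10.03, 10.09, 10.20, 9.28 and 9.25 in vehicle db/db BAT. In WT BAT Egr2 measured 4.46, 5.03, 4.93, 5.61 and 6.48 with PEG30-FGF21 Q108, and 7.20, 6.08, 5.70, 4.41 and 5.48 with vehicle, which overlapped. The difference was -1.83 ± 0.47 (adjusted p = 0.005), and the change from day 2 to day 5 was -2.75 (adjusted p = 0.019). At day 2 the db/db response was -0.40 and the WT response, which was called, -1.32.

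Ier2, a growth-factor-induced nuclear protein, measured 6.45, 6.81, 7.04, 7.16 and 7.35 in PEG30-FGF21 Q108 db/db BAT at day 5, against 9.0, 8.56, 8.34, 7.72 and 7.96 in vehicle db/db BAT. In WT BAT Ier2 measured 5.95, 6.62, 6.38, 6.38 and 6.27 with PEG30-FGF21 Q108, and 6.01, 6.51, 6.51, 6.35 and 6.50 with vehicle. Treated and vehicle mice were apart in db/db BAT and lay on each other in WT BAT, with a difference of -1.30 ± 0.27 (adjusted p = 0.0003). Fos (-2.26 ± 0.58), Btg2 (-1.28 ± 0.29), Fosl2 (-1.09 ± 0.22), Junb (-1.08 ± 0.31) and Zfp36 (-0.78 ± 0.25) made up the rest of the 8. Junb and Zfp36 lost the call without the db/db vehicle mouse of replicate 1 (-0.91, adjusted p = 0.058, and -0.63, adjusted p = 0.13), and Egr2, Fos, Junb and Zfp36 are named after their values were seen. Leaving out 1 array ended the Junb call for 1 of the 20 arrays and the Zfp36 call for 11.

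**Figure D4:**
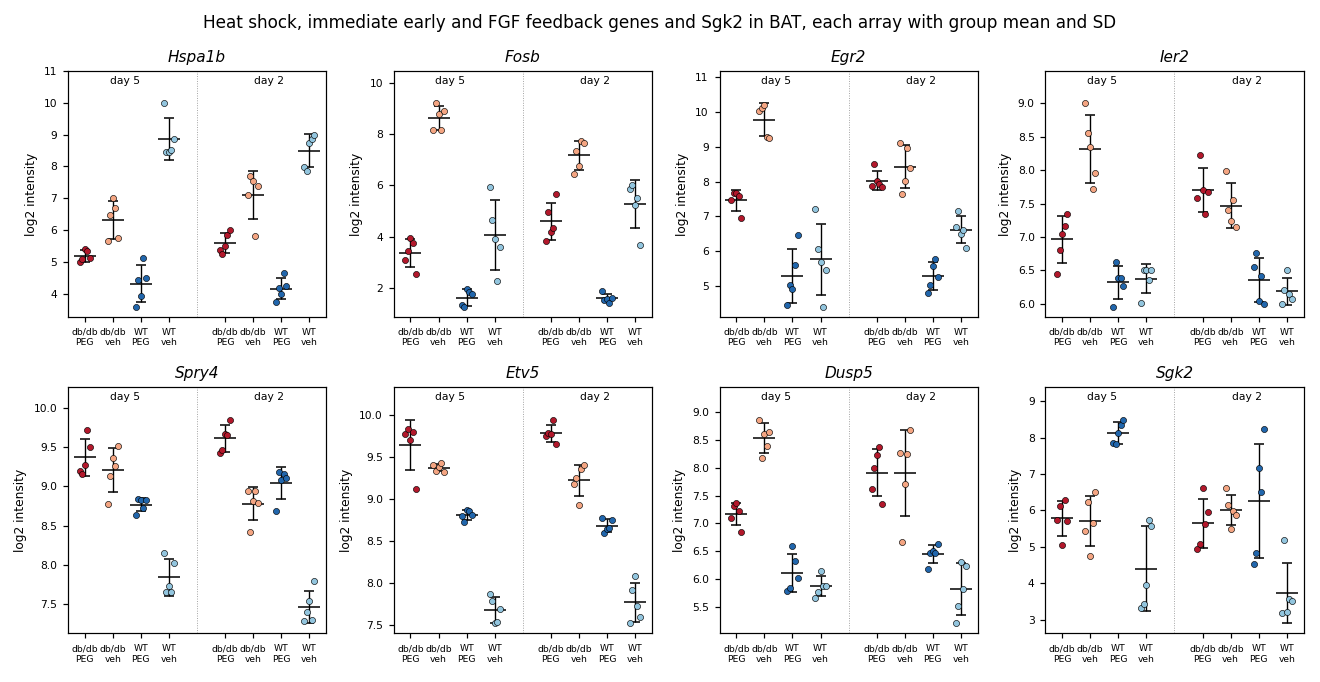
Log2 intensity of Hspa1b, 3 immediate early genes, 3 FGF feedback genes and Sgk2 on each array (points), with the group mean and SD (n = 5), PEG30-FGF21 Q108 left of vehicle within db/db and WT BAT, day 5 left of day 2. Hspa1b, Etv5 and Sgk2 separate treated from vehicle mice most in WT BAT at day 5, and Fosb, Egr2, Ier2 and Dusp5 most in db/db BAT at day 5.

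Of 18 FGF receptor feedback and ERK-induced genes, 3 had the lower db/db response at day 5 and none the higher one (median -0.26), on the whole list and without any 1 array, and at day 2 1 had the lower and 1 the higher one (median 0.06). Etv5, an ETS factor downstream of FGF receptors, measured 9.77, 9.83, 9.70, 9.79 and 9.11 in PEG30-FGF21 Q108 db/db BAT at day 5, against 9.40, 9.33, 9.38, 9.42 and 9.32 in vehicle db/db BAT. In WT BAT Etv5 measured 8.79, 8.72, 8.87, 8.86 and 8.81 with PEG30-FGF21 Q108, and 7.87, 7.78, 7.52, 7.53 and 7.69 with vehicle. In db/db BAT the treated mouse of replicate 5 lay below all vehicle mice, whereas in WT BAT all treated mice were higher. The responses were 0.27 in db/db and 1.13 in WT BAT, a difference of -0.86 ± 0.13 (adjusted p = 5.6e-07), and at day 2 they were 0.56 and 0.91 (difference -0.36 ± 0.13, adjusted p = 0.2).

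Spry4, a Sprouty inhibitor of the receptor, measured 9.19, 9.16, 9.27, 9.72 and 9.50 in PEG30-FGF21 Q108 db/db BAT at day 5, against 8.77, 9.13, 9.36, 9.26 and 9.52 in vehicle db/db BAT. In WT BAT Spry4 measured 8.64, 8.84, 8.82, 8.72 and 8.82 with PEG30-FGF21 Q108, and 8.15, 7.65, 7.73, 7.65 and 8.02 with vehicle. The db/db values overlapped and the WT values did not, with a difference of -0.77 ± 0.19 (adjusted p = 0.0043). At day 2 the rise was called in both models, by 0.84 in db/db and 1.58 in WT BAT, and their difference of -0.74 ± 0.19 (adjusted p = 0.031) was lost without the db/db PEG30-FGF21 Q108 mouse of replicate 1 (-0.69, adjusted p = 0.078).

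Dusp5, an ERK phosphatase, fell in db/db BAT at day 5. It measured 7.10, 7.31, 7.36, 7.22 and 6.85 in PEG30-FGF21 Q108 db/db BAT, against 8.87, 8.17, 8.61, 8.39 and 8.65 in vehicle db/db BAT. In WT BAT Dusp5 measured 5.78, 5.83, 6.60, 6.32 and 6.02 with PEG30-FGF21 Q108, and 5.65, 5.77, 6.14, 5.88 and 5.88 with vehicle. The db/db groups were apart, the WT groups overlapped, and the difference was -1.62 ± 0.39 (adjusted p = 0.0024). Dusp4, another ERK phosphatase, rose in both models (1.01 in db/db and 1.39 in WT BAT at day 5, difference -0.37, adjusted p = 0.45). Spry1 was the member with the higher db/db response at day 2 (1.0 ± 0.22, adjusted p = 0.0073), with responses of 0.52 in db/db and -0.48 in WT BAT.

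Among 12 genes of the receptor complex and its adaptors, only Fgfr1 was called, at day 5 (-0.55 ± 0.16, adjusted p = 0.017), with responses of -0.64 in db/db and -0.09 in WT BAT, and not without the WT vehicle mouse of replicate 3 (-0.46, adjusted p = 0.066). Klb differed by -0.18 ± 0.17 at day 5 and -0.21 ± 0.17 at day 2, and Fgf21 by 0.22 ± 0.25 and 0.43 ± 0.25, none of them called. Of 12 leptin receptor and JAK-STAT genes none was called on either day (medians -0.07 and -0.02; without adjustment, p was under 0.05 for 1 higher and 2 lower at day 5 and 1 lower at day 2). A dimmer probe set of the member Stat5a, not the one counted, met both limits at day 5 (0.40, limma, adjusted p = 0.029). Lep, the leptin gene, had a db/db response of -0.29 and a WT response of -2.54 at day 5, a difference of 2.26 ± 0.76 that missed the threshold (adjusted p = 0.052).

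Sgk2, a kinase related to Sgk1, had the most negative difference of all named genes on both days. It measured 5.74, 6.12, 5.04, 6.30 and 5.71 in PEG30-FGF21 Q108 db/db BAT at day 5, against 5.44, 6.24, 4.76, 5.65 and 6.51 in vehicle db/db BAT. In WT BAT Sgk2 measured 7.85, 7.84, 8.13, 8.34 and 8.50 with PEG30-FGF21 Q108, and 3.32, 3.43, 3.94, 5.73 and 5.57 with vehicle. The db/db groups overlapped throughout and the WT groups were apart, with responses of 0.06 in db/db and 3.73 in WT BAT and a difference of -3.67 ± 0.63 (adjusted p = 1.2e-05).

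At day 2 Sgk2 measured 4.93, 5.09, 6.62, 5.63 and 5.96 in PEG30-FGF21 Q108 db/db BAT, against 6.61, 6.16, 5.48, 5.98 and 5.88 in vehicle db/db BAT. In WT BAT Sgk2 measured 4.52, 4.84, 7.16, 6.51 and 8.25 with PEG30-FGF21 Q108, and 3.17, 5.19, 3.21, 3.57 and 3.52 with vehicle. Treated WT replicates 1 and 2 lay below the highest vehicle mouse, and the difference was -2.90 ± 0.63 (adjusted p = 0.005). Sgk1, induced by glucocorticoids and insulin, also had the lower db/db response at day 5 (-0.56 ± 0.12, adjusted p = 0.00057), as a fall in db/db BAT of 0.60 on the log2 scale.

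Of 18 circadian clock genes, 5 had the higher and 1 the lower db/db response at day 5 (median 0.35), and 1 had the higher one at day 2 (median 0.34). Per2, a repressor of the core clock, measured 8.31, 8.27, 8.47, 8.48 and 8.42 in PEG30-FGF21 Q108 db/db BAT at day 5, against 7.21, 8.27, 8.18, 8.51 and 8.99 in vehicle db/db BAT. In WT BAT Per2 measured 5.21, 6.97, 5.37, 6.36 and 6.38 with PEG30-FGF21 Q108, and 8.80, 7.61, 8.10, 8.52 and 8.46 with vehicle. Values overlapped in db/db BAT, all treated WT mice were below their vehicle mice, and the difference was 2.39 ± 0.43 (adjusted p = 3.2e-05). The day 2 difference of 1.59 ± 0.43 (adjusted p = 0.042) was 1.04 without the WT PEG30-FGF21 Q108 mouse of replicate 3, which had the lowest value, 3.86 (adjusted p = 0.23).

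Per3 had the same direction (1.29 ± 0.36, adjusted p = 0.013), from responses of 0.09 in db/db and -1.19 in WT BAT, and so had the output factors Dbp (1.70) and Tef (0.84) and the repressor Ciart (0.90), from rises in db/db BAT of 1.64, 0.48 and 0.61. Arntl, the clock activator, was the one with the lower db/db response (-1.34 ± 0.41, adjusted p = 0.024). At day 5 each call but those of Per2 and Per3 was lost without 1 array, Dbp without the db/db vehicle mouse of replicate 4 (1.53, adjusted p = 0.1), Tef and Ciart without the WT PEG30-FGF21 Q108 mouse of replicate 3 (0.73, adjusted p = 0.057, and 0.77, adjusted p = 0.11) and Arntl without the WT PEG30-FGF21 Q108 mouse of replicate 1 (-1.25, adjusted p = 0.054). Dbp and Ciart are named after their values were seen.

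Of 17 collagen and extracellular matrix genes, 7 had the higher db/db response at day 5 and none the lower one (median 0.37), and at day 2 only Col4a2, a basement membrane collagen, was called, as lower (-0.27). The db/db response was called as a fall for 7 of the 17 and the WT response for 10 (10.6% and 8.41% of all genes). Leaving out any 1 array, 3 to 7 were called. Col3a1, a fibrillar collagen, measured 12.13, 12.28, 12.20, 12.11 and 12.20 in PEG30-FGF21 Q108 db/db BAT at day 5, against 12.33, 12.41, 12.44, 12.42 and 12.40 in vehicle db/db BAT. In WT BAT Col3a1 measured 10.14, 10.02, 10.18, 10.09 and 10.43 with PEG30-FGF21 Q108, and 11.32, 11.54, 11.71, 11.10 and 11.31 with vehicle. Treated mice were lower without overlap in both models, by responses of -0.21 and -1.23, and the difference was 1.01 ± 0.14 (adjusted p = 8.3e-08), a change of 0.95 from day 2 (adjusted p = 0.0056). Col1a2 (1.0 ± 0.22) and Col6a1 (0.78 ± 0.16) were the others called without any 1 array, and Col5a1 (0.90), Col1a1 (0.74), Col6a3 (0.71) and Col6a2 (0.66) lost the call without the WT vehicle mouse of replicate 3 (0.78, 0.64, 0.65 and 0.61, adjusted p = 0.055, 0.088, 0.1 and 0.063), and Col4a2 without the db/db vehicle mouse of replicate 5 at day 2 (-0.23, adjusted p = 0.13). Col1a1, Col4a2, Col6a2 and Col6a3 are named after their values were seen.

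None of 16 macrophage markers was called for the difference on either day (medians 0.45 at day 5 and -0.14 at day 2; without adjustment, p was under 0.05 for 2 higher at day 5, and for 1 higher and 1 lower at day 2). The db/db response itself was called as a fall for 2 of them at day 5 (10.6% of all genes) and the WT response for 11 (8.41% of all genes). Their summed intensity was 11955.1 to 14664.5 in PEG30-FGF21 Q108 and 14231.2 to 18777.3 in vehicle db/db BAT, and 2039.8 to 2778 in PEG30-FGF21 Q108 and 2796.4 to 5180.3 in vehicle WT BAT, and its part in the collagen result was not tested. Of 9 endothelial markers, Pecam1 (-0.42 ± 0.08), Tek (-0.35) and Cdh5 (-0.32) had the lower db/db response at day 5, Tek and Cdh5 not without the WT vehicle mouse of replicate 4 (-0.29, adjusted p = 0.057) and the WT PEG30-FGF21 Q108 mouse of replicate 3 (-0.29, adjusted p = 0.067). None of 10 white adipocyte markers was called on either day (without adjustment, p was under 0.05 for 2 higher at day 5 and none at day 2). Among 15 interferon-induced and MHC class II genes, 3 had the lower db/db response at day 5, Rsad2 (-1.2), Usp18 (-1.16) and Ifit2 (-1.07), all with a WT rise of 0.85 to 1.01.

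**Figure D5:**
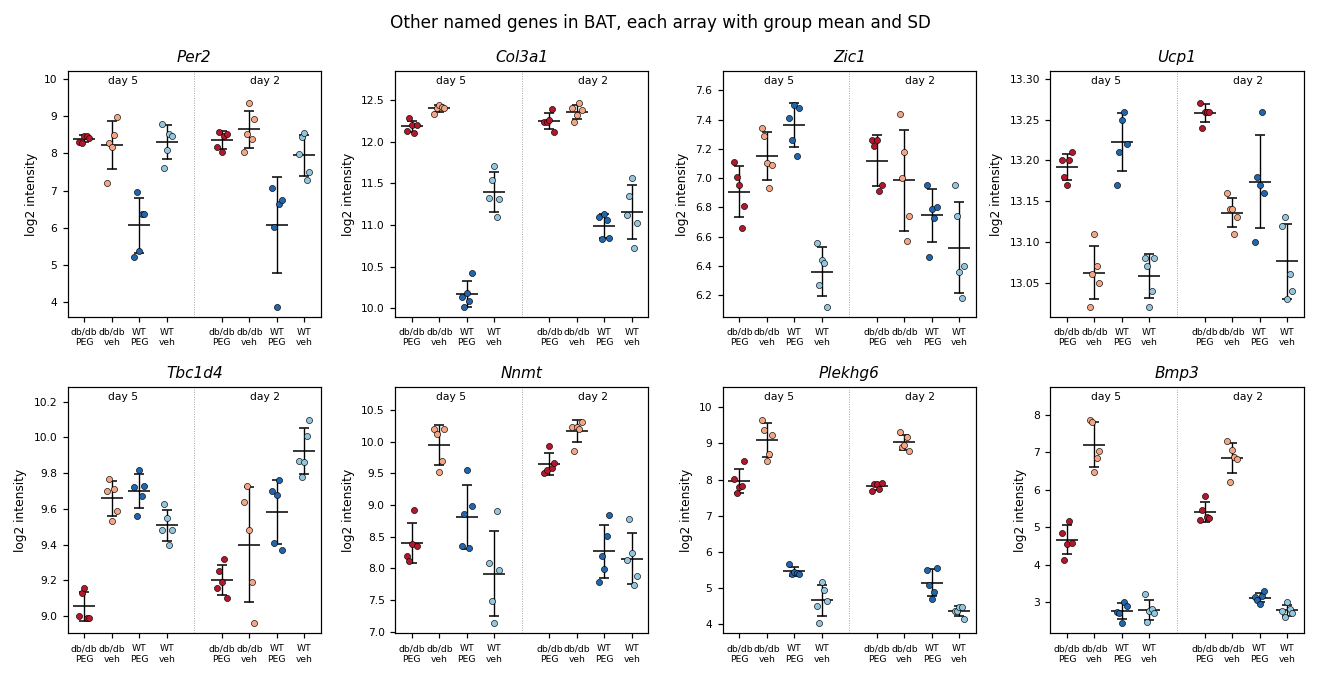
Log2 intensity of 8 further genes on each array (points), with the group mean and SD (n = 5), PEG30-FGF21 Q108 left of vehicle within db/db and WT BAT, day 5 left of day 2. Per2, Col3a1 and Zic1 separate treated from vehicle mice most in WT BAT at day 5, Tbc1d4, Nnmt and Bmp3 in db/db BAT, Ucp1 in both by 0.13 and 0.16, and Plekhg6 in opposite directions.

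Of 15 antioxidant and NRF2 target genes, 4 had the higher db/db response, led by the glutathione transferase Gsta3 (1.85 ± 0.41, adjusted p = 0.0009), and 1 the lower one, the glutathione peroxidase Gpx3 (-0.51), against 4.67% and 4.7% of all genes. Adcy3, an adenylate cyclase, was the only one of 16 adrenergic and cAMP signaling genes called (-1.49 ± 0.31, adjusted p = 0.00035), with responses of 0.06 in db/db and 1.55 in WT BAT. Slc27a2, a fatty acid transport protein, was the only one of 13 lipid uptake genes called (-1.43 ± 0.29, adjusted p = 0.00022). Of 13 inflammatory and acute phase genes, lipocalin 2 (Lcn2, 1.79) had the higher and the interleukin 1 antagonist Il1rn (-1.23) the lower db/db response. Leaving out 1 array ended the Lcn2 call for 12 of the 20 arrays and the Il1rn call for 6. The weakest values came without the WT vehicle mouse of replicate 5 for Lcn2 (1.56, adjusted p = 0.1) and that of replicate 3 for Il1rn (-1.12, adjusted p = 0.071). Of 12 genes that the study names in its account of BAT, 3 had the higher and 3 the lower db/db response at day 5, and 1 the higher and 2 the lower one at day 2. Among them, Sfrp5 and Kcne1l were picked by the study in white fat and Ucp1 was added as a browning control. The study chose the others on these samples.

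Outside these groups, the genes with the largest differences were of mixed function. Plekhg6, a protein with a pleckstrin homology domain, measured 8.02, 7.64, 7.80, 7.81 and 8.50 in PEG30-FGF21 Q108 db/db BAT at day 5, against 9.66, 9.37, 8.51, 8.72 and 9.22 in vehicle db/db BAT. In WT BAT Plekhg6 measured 5.66, 5.39, 5.45, 5.40 and 5.38 with PEG30-FGF21 Q108, and 4.50, 4.02, 5.16, 4.93 and 4.65 with vehicle. Treated mice were lower in db/db and higher in WT BAT without overlap, with differences of -1.94 ± 0.33 at day 5 (adjusted p = 6.5e-06) and -2.0 ± 0.33 at day 2 (adjusted p = 4.1e-05).

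Bmp3, a BMP family ligand, was called as a fall in db/db BAT alone. It measured 4.86, 4.14, 4.56, 5.18 and 4.58 in PEG30-FGF21 Q108 db/db BAT at day 5, against 7.87, 7.80, 6.47, 6.85 and 7.04 in vehicle db/db BAT. In WT BAT Bmp3 measured 2.73, 2.72, 2.44, 3.01 and 2.90 with PEG30-FGF21 Q108, and 3.21, 2.48, 2.78, 2.83 and 2.72 with vehicle, all low on the scale. The difference was -2.50 ± 0.24 at day 5 (adjusted p = 6e-13) and -1.79 ± 0.24 at day 2 (adjusted p = 2.2e-07). Gdf5, another ligand of that family, differed by -2.0 ± 0.33 at day 5 and -1.82 ± 0.33 at day 2.

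Nnmt, which methylates nicotinamide, measured 8.20, 8.12, 8.38, 8.92 and 8.36 in PEG30-FGF21 Q108 db/db BAT at day 5, against 10.21, 10.12, 9.53, 9.70 and 10.20 in vehicle db/db BAT. In WT BAT Nnmt measured 8.36, 8.86, 9.56, 8.32 and 8.98 with PEG30-FGF21 Q108, and 8.08, 7.49, 7.13, 8.91 and 7.97 with vehicle. Treated db/db mice were all lower than vehicle, the WT groups overlapped with a response of 0.90, and the difference was -2.45 ± 0.39 (adjusted p = 1.9e-06). Ebf1, an early adipogenic factor, measured 9.41, 9.55, 9.35, 9.45 and 8.94 in PEG30-FGF21 Q108 and 10.03, 9.88, 9.96, 10.07 and 9.99 in vehicle db/db BAT at day 5, and 9.74, 9.29, 9.64, 9.78 and 9.83 in PEG30-FGF21 Q108 and 9.18, 9.45, 9.26, 9.05 and 9.26 in vehicle WT BAT. Only in WT BAT did the groups overlap. The difference was -1.06 ± 0.13 (adjusted p = 1.2e-09) at day 5, and at day 2 it was -0.53 and was lost without the WT vehicle mouse of replicate 3 (-0.47, adjusted p = 0.056). Of 3 other Ebf1 probe sets, 2 were called in the same direction on both days and 1, at -0.20 and -0.22, on neither.

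Sorcs2, a sorting receptor, measured 10.38, 10.45, 10.31, 10.13 and 10.49 in PEG30-FGF21 Q108 db/db BAT at day 5, against 7.73, 7.74, 9.05, 8.45 and 7.58 in vehicle db/db BAT. In WT BAT Sorcs2 measured 8.42, 7.92, 7.66, 8.27 and 7.73 with PEG30-FGF21 Q108, and 9.27, 9.78, 9.65, 9.39 and 9.07 with vehicle. Treated mice were higher in db/db and lower in WT BAT without overlap, with a difference of 3.67 ± 0.44 at day 5 (adjusted p = 9e-10) and of 2.43 ± 0.44 at day 2 (adjusted p = 0.00034).

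Trim80 was the gene with the most positive difference at day 2. It measured 8.00, 7.55, 6.88, 6.62 and 7.45 in PEG30-FGF21 Q108 db/db BAT then, against 3.58, 3.40, 3.52, 3.31 and 3.41 in vehicle db/db BAT. In WT BAT Trim80 measured 3.95, 5.08, 4.15, 4.63 and 4.13 with PEG30-FGF21 Q108, and 4.92, 3.56, 4.37, 4.31 and 4.61 with vehicle. Treated and vehicle db/db mice were apart by over 3 log2 units, WT mice overlapped, and the difference was 3.82 ± 0.42 (adjusted p = 3.8e-10), with 2.05 ± 0.42 at day 5 (adjusted p = 0.00029). The vehicle db/db values were below the median probe set of their group (4.23), so that the size of the rise, and with it the rank, rests on a dim baseline.

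The other genes that the largest differences brought in were, on the higher side, Atp4b (3.0 at day 5 and 1.96 at day 2), Gm671 (2.76 at day 5), the glutathione transferase Mgst2 (2.73 at day 5), Rspo4 (2.13 at day 5 and 2.49 at day 2) and 2310069B03Rik (2.69 at day 2). On the lower side they were Cpne9 (-3.01), the pantetheinase Vnn1 (-2.54), the prostaglandin receptor Ptger4 (-2.51) and Chil3 (-2.47) at day 5, and Nfe2l3 (-1.73), the neuropeptide gene Nts (-1.52), the adhesion gene Nectin2 (-1.38, and -0.63 on a brighter probe set) and Zfp185 (-1.32) at day 2. At day 2 Atp4b lost the call without the WT PEG30-FGF21 Q108 mouse of replicate 5 (1.81, adjusted p = 0.094), Nts without that of replicate 3 (-1.19, adjusted p = 0.083) and Zfp185 without that of replicate 4 (-1.15, adjusted p = 0.072).

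The lower dose of PEG30-FGF21 Q108 (0.75 mg/kg) and unpegylated WT FGF21 (1.25 mg/kg, 2 doses a day, with the tissue timing of vehicle, some 6 h) were set against the same vehicle mice, so that their values are not independent of those above. The difference of responses was called for 3279 probe sets (7.51%) at the lower dose and 2003 (4.59%) with WT FGF21 at day 5, and for 448 (1.03%) and 196 (0.449%) at day 2. At day 5, 3.56% were called as higher and 3.95% as lower at the lower dose, and 2.2% and 2.38% with WT FGF21. These are shares of all probe sets, whereas the lists take 1 probe set a gene, a basis on which no share was counted here. At day 5, 12 of the 19 lipogenesis genes were called as higher at the lower dose and 12 with WT FGF21, and none as lower. Acss2 differed by 2.13 ± 0.23 and Slc25a1 by 2.02 ± 0.29 at the lower dose, and by 1.56 ± 0.23 and 1.55 ± 0.29 with WT FGF21, all called.

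Of the 15 heat shock genes, 5 had the higher db/db response at the lower dose (median 0.43) and 1 with WT FGF21 (median 0.13) at day 5. Of the 19 immediate early genes, 6 had the lower db/db response at the lower dose (median -0.48) and 6 with WT FGF21 (median -0.72). Of the 17 collagen and matrix genes, 1 had the higher db/db response at the lower dose (median -0.04) and 3 with WT FGF21 (median 0.40), and none the lower one, against 7 at 2.5 mg/kg. In the heat shock and collagen lists, a count of 1 is too small to be set apart from the shares of all probe sets. At day 5 Hspa1b differed by 4.38 ± 0.70 at the lower dose (adjusted p = 2.4e-06) and by 2.07 ± 0.70 with WT FGF21 (adjusted p = 0.068), with WT-chow responses of -4.25 and -1.52. Fosb differed by -1.90 ± 0.71 and -0.91 ± 0.71, neither called, with db/db responses of -4.21 and -1.22. Sgk2 differed by -4.04 ± 0.63 and -2.03 ± 0.63, both called, and Per2 by 1.56 ± 0.43, called, and 0.21 ± 0.43, not called. The differences between these treatments were not tested.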

How the data were processed

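BAT of male mice was profiled on custom Affymetrix arrays, 1 per mouse. The authors ran RMA (Rosetta Resolver) and deposited linear intensities, 1 per array for each of 43681 probe sets. Values were converted to log2 with no pseudocount. The group means of all 119 BAT arrays were fitted together with limma 3.58.1 in R 4.3.3 (lmFit, then eBayes with a mean trend), so that all groups share 1 estimate of the spread. The difference of responses was a contrast within each day, with Benjamini-Hochberg adjustment over all probe sets, and a call needed both a fold of 1.2 or more and an adjusted p below 0.05. Mice are the replicates, and their number limits the precision. Probe sets were named from the platform annotation (30342, of which 6280 symbols were updated) or from the accession in their ID (635), 12704 remained unnamed, and a list took each gene's probe set with the highest mean level.

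Named genes were, per day, the 8 most positive and 8 most negative called genes, up to 4 members of each list with the smallest adjusted p, or the highest level where none was called, the receptor, leptin and FGF21 genes, and genes the study names for BAT. The members and lists were chosen with earlier results of these data known. Data were also simulated from the day 5 comparison, with all differences of responses removed and only the changes listed next planted among 43681 probe sets. Of these, 14 of 67 changes of 0.5, 58 of 67 of 1 and 64 of 66 of 2 (log2) were recovered, with 7 false calls. With so few changes the adjustment was stricter than in the real data, and the simulated noise was independent between probe sets. The recovery and the false calls therefore do not carry over to the counts above. Alternatives tried were other sets of arrays, a variance per model, quantile scaling, a pseudocount of 32, filters on dim probe sets, the replicate number as a block, the methods' ANOVA, the mean of a gene's probe sets and leaving out each array. Array weights, a brightness filter and the muscle covariate were chosen after seeing the data. The values of 1 named gene are not reported here.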

Additional observations from a re-analysis of the deposited data

Results flagged for a closer look

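Among 216 groups of 5 mice (27 genes in 8 groups), 16 held a mouse far from the other 4 of its group, the gap to the nearest being over 0.71 of the group's range, and chance alone marks about 1 group in 20. In PEG30-FGF21 Q108 db/db BAT these were the lowest Etv5 value at day 5 (9.11, the next being 9.70), the highest Fasn value at day 5 (13.16, next 13.09), the lowest Elovl6 value at day 2 (11.77, next 12.05) and the highest Egr2 value at day 2 (8.50, next 8.01). In vehicle db/db BAT they were, all at day 2, the highest Acss2 value (10.16, next 9.85), the lowest Nnmt value (9.86, next 10.20) and the lowest Spry4 value (8.42, next 8.79). In PEG30-FGF21 Q108 WT BAT they were the highest Slc2a5 (8.92, next 7.99), Plekhg6 (5.66, next 5.45) and Trim80 values (5.79, next 4.49) at day 5, and the lowest Spry4 value at day 2 (8.68, next 9.08). In vehicle WT BAT they were the highest Hspa1b value at day 5 (9.98, next 8.85) and, at day 2, the lowest Acly (10.40, next 10.98), Acss2 (10.70, next 11.27) and Elovl6 values (12.02, next 12.26) and the highest Sgk2 value (5.19, next 3.57).

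For 16 named genes the difference of responses itself differed between the days (day 5 minus day 2, tested as a contrast in limma). It was more positive at day 5 for Gm671 (2.33, adjusted p = 0.0094), the glutathione transferases Mgst2 (1.97, adjusted p = 0.015) and Gsta4 (0.46, adjusted p = 0.044), Acss2 (1.56, adjusted p = 0.0062) and Col3a1 (0.95, adjusted p = 0.0056). It was more negative for the immediate early genes Fosb (-3.92, adjusted p = 0.034), Fos (-3.89, adjusted p = 0.0062), Egr2 (-2.75, adjusted p = 0.019), Btg2 (-1.50, adjusted p = 0.046) and Zfp36 (-1.48, adjusted p = 0.018). It was also more negative for Ptger4 (-2.52, adjusted p = 0.0092), the interferon-induced Usp18 (-1.60, adjusted p = 0.035), Alpl (-1.16, adjusted p = 0.03), Zic1 (-1.16, adjusted p = 0.006), Tbc1d4 (-0.95, adjusted p = 0.0032) and Insr (-0.67, adjusted p = 0.022).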

How the results depend on the processing

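Against 3086 probe sets called at day 5, 446 at day 2 and 355 for the change between the days, the methods' ANOVA at an unadjusted p under 0.05 and the same fold called 7080, 3748 and 5101, and after Benjamini-Hochberg adjustment it called 184 at day 2. For the change between the days a pseudocount of 32 gave 219, a filter at the median level 652, a filter on brightness in all groups 640, array weights 571, and quantile scaling 386, with 220 higher and 166 lower in place of 158 and 197. Quantile scaling also turned which direction held more calls in the db/db response at day 5, with 3731 higher and 3250 lower in place of 3404 and 3802. Leaving out 1 array, the day 5 count was 2670 to 3084, the day 2 count 285 to 467, and the count for the change 218, without the db/db vehicle mouse of replicate 4 at day 2, to 470. The replicate numbers do not pair mice (correlations of same-numbered mice -0.236 to 0.352), and with the replicate block 3090, 445 and 324 were called. Of 150 named calls, 84 were kept under every alternative that gave a value and 48 were lost without at least 1 array. Several of the 48 did not hang on 1 mouse. Of the 20 arrays of the day, 16 each ended the Dnaja1 call at day 2 when left out. For Col4a2 and Eno1 at day 2 it was 15 and 14, and for Col6a3 at day 5 it was 13. It was 12 for Per2, Cpt1a and Atp4b at day 2 and for Dbp, Nsdhl and Lcn2 at day 5. For Zfp36, Ciart and Pdia4 at day 5 it was 11, and for Spry4 at day 2 it was 10. Fdft1 at day 5 turned to 0.18 (adjusted p = 0.59) with the mean of all its probe sets, and the cause was not tested. At day 5, 273 of the 3086 lay below the array median in both db/db groups and 296 in both WT groups.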
